A study of Mus musculus with 12 samples.

Results

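The genes described here are the named genes that were lower in both knockdowns (KDs) of the NuRD complex in mouse embryonic stem (ES) cells, on every array. A gene was included when its log2 signal lay at least 0.6 below the mean of the EGFP KD arrays on each of the 4 arrays labelled Mbd3 KD or Chd4 KD, and its probe was well above background on both EGFP KD arrays. The log2 signal is the array's processed signal divided by the 75th percentile of that array, on the log2 scale, and each gene is read from its brightest probe. The targeted genes Mbd3 and Chd4 were left out, together with Cbr3, Arid1b and Ccno. Of 17567 named genes that could enter, 187 met the rule (1.06%). Cbr3 and Ccno would have met it too. The members were chosen by the values of Mbd3 KD and Chd4 KD against EGFP KD, so the size of these differences is a description and was not tested.

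RNA was measured on 12 one-colour Agilent arrays, 2 biological replicates for each of 6 groups. All groups were E14 mouse ES cells, grown without feeder cells in serum and LIF and harvested 48 hr after transfection with endoribonuclease-prepared siRNAs (esiRNAs), which are pools of short RNAs cut from a long double-stranded RNA. The groups differed in the targeted mRNA, which was EGFP (the control), Dnmt1, Tet1, Mbd3, Mbd2 or Chd4. A knockdown lowers an mRNA and does not remove the gene.

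NuRD is a chromatin complex that joins nucleosome remodelling by the ATPase Chd4 with histone deacetylation by Hdac1 and Hdac2. Each complex holds either Mbd3 or Mbd2, and Mbd2 recognizes methylated CpG. Dnmt1 keeps CpG methylation through DNA replication, and Tet1 oxidizes methylcytosine to hydroxymethylcytosine. In ES cells NuRD is best known as a repressor that holds pluripotency genes at moderate levels.

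The targeted mRNAs were read first. Mbd3 differed from the EGFP KD mean by -3.07 and -2.85 on the 2 Mbd3 KD arrays, Chd4 by -1.54 and -1.01 in Chd4 KD and Dnmt1 by -1.63 and -2.34 in Dnmt1 KD. The Tet1 probe differed by -0.02 and -1.81 in the libraries labelled Tet1 KD replicates 1 and 2, and by -1.78 in the one labelled Mbd2 KD replicate 1. One of the Mbd2 probes differed by -0.23 and -1.77 in those labelled Mbd2 KD replicates 1 and 2, and by -1.74 in that labelled Tet1 KD replicate 1, while the other Mbd2 probe was near the EGFP KD mean on both arrays labelled Mbd2 KD (-0.07 on each). The arrays labelled replicate 1 of Tet1 KD and of Mbd2 KD, 2 in all, thus went against their labels. The labels were kept, so values for Tet1 KD and Mbd2 KD rest on arrays labelled alike whose targeted probes differed, and the tests are also given without these 2 arrays. Some targeted mRNAs were also lower elsewhere. The same Tet1 probe differed by -0.60 and -0.88 in Dnmt1 KD and by -0.70 and -0.54 in Chd4 KD. A second Tet1 probe differed by -0.51 and -0.36, and by -0.16 and 0.05, on these arrays. Dnmt1 differed by -0.91 and 0.06 on the arrays labelled Mbd2 KD replicates 1 and 2, and by 0.05 and -0.68 on those of Tet1 KD. Of 6 ES cell markers, 5 were well above background on all 12 arrays, and the Nanog probe on 10. The summed scaled signal of 7 fibroblast markers was 5.62 to 6.56 in EGFP KD, 10.2 to 10.6 in Mbd3 KD and 10.1 to 13.2 in Chd4 KD, and all 7 were well above background on all 12 arrays. In Mbd3 KD and Chd4 KD in turn, the differences were 1.28 and 1.42 for Thy1, 0.25 and 2.5 for Col1a1, 0.16 and 0.24 for Acta2, -0.23 and -0.01 for Col1a2, -0.57 and -0.74 for Col3a1, -0.65 and -0.50 for Dcn and -1.0 and -1.07 for Lum. That of 6 trophectoderm markers was 3.89 to 4.77, 6.87 to 7.49 and 8.66 to 8.76, and Tfap2c, Hand1 and Krt7, 3 of the 6, were well above background on all 12 arrays. These 3 differed by 0.80, -1.05 and -0.16 in Mbd3 KD and by 1.05, 0.56 and 0.88 in Chd4 KD, and Cdx2, Elf5 and Gata3 by -0.25, 0.37 and -0.86 in Mbd3 KD and by -0.25, 0.24 and 0.27 in Chd4 KD. The part of other cell types in the members' values was not tested, and in bulk RNA fewer cells of a type and less RNA per cell cannot be told apart.

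Across the 187 members the median log2 difference from EGFP KD was -0.96 in Mbd3 KD and -1.05 in Chd4 KD, that is 1.95-fold and 2.07-fold lower, beside -0.06 and -0.03 over all 17567 eligible genes. The means over the 4 NuRD KD arrays ran from -2.75 (Wt1) to -0.61 (Kng2). They were -1 or lower for 97 members and -1.5 or lower for 21. On all 4 NuRD KD arrays, 170 members lay below both EGFP KD arrays, as did 12.4% of all eligible genes. The other 17 overlapped one of the EGFP KD arrays, and all 17 were among the 22 members whose EGFP KD arrays differed from each other by more than 1. These 17 were Scn10a, Insrr, Kcnmb3, Kdm3b, Opcml, Fut2, Tex33, Fa2h, Six3, Olfr250, Hoxb2, Sdccag8, Gng4, 4931406B18Rik, Cadps2, Glycam1 and Kcnip4. On 17 of these 22, replicate 1 was the higher EGFP KD array. Such a gap was seen in 11.8% of members and in 8.77% of all eligible genes.

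**Figure D1:**
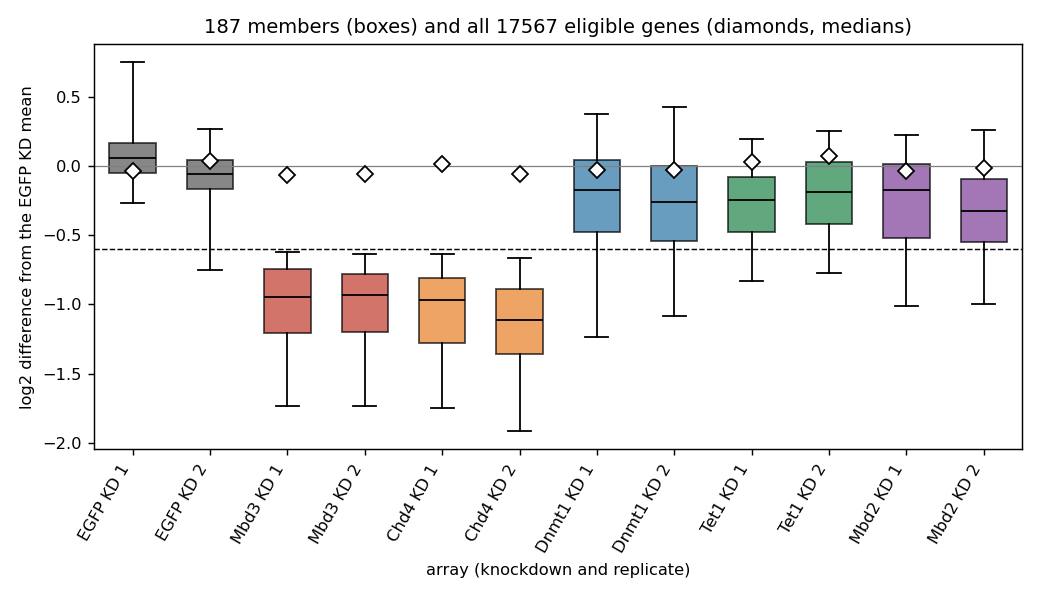
Log2 difference of the 187 members from the EGFP KD mean on each of the 12 arrays (box, median and quartiles, whiskers at the 5th and 95th percentiles), with the median of all 17567 eligible genes as a diamond and the threshold of the rule as a dashed line. The 4 NuRD KD boxes lie wholly below the threshold, as the rule requires, and the medians of the 6 other KD arrays lie between -0.33 and -0.17.

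The members can also be set beside the other KD arrays, although the EGFP KD arrays had a part in choosing them. On all 4 NuRD KD arrays, 140 members lay below all 6 arrays of the other KDs (3.98% of all eligible genes did), and the same 140 lay below all 8 other arrays (3.57%). Without the 2 arrays that went against their labels, 145 members did so against the other 4. The share of all eligible genes was not computed for this count, and fewer arrays make such a separation easier for any gene. The 3 slides hold the groups unevenly. On slide 1 Mbd3 KD replicate 1 was compared with EGFP KD replicate 1, on slide 2 Chd4 KD replicate 1 with EGFP KD replicate 2, and on slide 3, which holds no control, the second replicates of Mbd3 KD and Chd4 KD with those of Dnmt1 KD and Mbd2 KD. The members' medians were -1.02, -0.95 and -0.78 on slides 1, 2 and 3. All 3 within-slide differences were below 0 for 168 members (24.6% of all eligible genes) and at least 0.6 below for 114 (1.1%). The rule used the 4 NuRD KD arrays and the EGFP KD arrays. The counts and medians of this paragraph are thus a description and not a separate check of the members.

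The 3 members just inside the threshold were Cyb5d1, L3mbtl3 and Mios, whose highest of 4 differences was -0.601, -0.602 and -0.603, and the 3 genes just outside were Dusp6, Sgk1 and Gfpt2, each at -0.60. Of the members, 155 were well above background on all 4 NuRD KD arrays, and 11 were so on neither Mbd3 KD array. On 30 members at least 1 NuRD KD array, and on 8 members all 4, lay at the floor of -4.86, so their differences are bounds. The floor is the lowest signal well above background on Mbd3 KD replicate 2, the array where that limit was highest. On other arrays a signal at the floor could still be well above background. No member was saturated. Other probes of the same gene were kept for 42 members, 49 probes in all, and 25 of them were below the EGFP KD mean on all 4 NuRD KD arrays while 13 met the rule. Among those that did were second probes of Polr3gl, Rhoc, Cited2, Anxa1 and Defa3, and among those that did not were second probes of Pgm3, Mrpl41, St6gal1, Traf2 and Kdm3b, whose means were above 0.

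Promoter sequences from RefSeq (GRCm38.p6), 300 bases each with 250 before and 50 after the start, were matched to 146 members and to 13936 eligible genes in all. The 120 bases before the start are shown for Inhbb, Gbx2 and Abca1, which are among the 12 members with the lowest means, and for the neighbouring genes Polr3gl and Ankrd34a, because CpG is the dinucleotide that Dnmt1 and Tet1 act on and Mbd2 reads. CpG is in capitals. They lie at chr1:119422249-119422368 (minus strand) for Inhbb, chr1:89931177-89931296 (minus) for Gbx2, chr4:53159896-53160015 (minus) for Abca1, chr3:96594182-96594301 (minus) for Polr3gl and chr3:96596516-96596635 (plus) for Ankrd34a, and hold 15, 8, 10, 9 and 10 CpGs.
Inhbb: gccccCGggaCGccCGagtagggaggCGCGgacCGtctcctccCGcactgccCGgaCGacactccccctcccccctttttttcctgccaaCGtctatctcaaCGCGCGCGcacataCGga
Gbx2: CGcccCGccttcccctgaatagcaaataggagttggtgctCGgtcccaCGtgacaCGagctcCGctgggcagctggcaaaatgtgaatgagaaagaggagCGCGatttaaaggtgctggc
Abca1: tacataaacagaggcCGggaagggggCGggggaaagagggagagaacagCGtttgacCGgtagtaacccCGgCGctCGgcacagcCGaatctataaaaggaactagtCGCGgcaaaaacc
Polr3gl: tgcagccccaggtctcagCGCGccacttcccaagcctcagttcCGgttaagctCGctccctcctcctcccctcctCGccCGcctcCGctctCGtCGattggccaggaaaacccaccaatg
Ankrd34a: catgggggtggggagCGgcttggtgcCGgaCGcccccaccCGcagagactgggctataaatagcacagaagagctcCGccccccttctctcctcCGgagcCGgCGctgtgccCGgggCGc
The members' 300-base promoters had a median of 15 CpGs (quartiles 7 and 26), beside 17 (quartiles 6 and 26) over all eligible genes with a promoter, and a median GC content of 58.5% beside 58.3%. The ratio of observed to expected CpG had a median of 0.602 in members and 0.672 in all. Searched on both strands, the CCAAT box (CCAAT) was in 44.5% of member promoters and 38.8% of all, the GC box (GGGCGG) in 54.8% and 53.3%, the E-box (CACGTG) in 11% and 8.93%, and the TATA box (TATAAA) in 10.3% and 11.1%. No test was made of these shares, and a match is not evidence that a factor binds there.

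Classes of function were assigned to the members alone, so no share of all eligible genes stands beside the size of a class. Of the 187, 26 encode transcription factors, chromatin proteins or parts of the transcription machinery. Wt1, a zinc finger factor of kidney and gonad development, had the lowest mean of all. Its log2 signal was -0.55 and -0.63 on the EGFP KD arrays, -4.17 and -4.79 in Mbd3 KD, -1.99 and -2.40 in Chd4 KD and between -1.24 and -0.42 on the 6 other KD arrays. The 4 NuRD KD arrays were the lowest of the 12. Chd4 KD was 3.04-fold below EGFP KD, and for Mbd3 KD no fold is given, because only 1 of its 2 arrays was well above background. Gbx2, a homeobox factor downstream of LIF and Stat3 that supports self-renewal of ES cells, had 1.47 and 1.15 in EGFP KD, -0.10 and -0.39 in Mbd3 KD, -1.34 and -1.36 in Chd4 KD and between 0.78 and 1.53 on the other KD arrays. Here Chd4 KD was lower than Mbd3 KD, 6.31-fold against 2.93-fold below EGFP KD. Myc, a growth-promoting basic helix-loop-helix factor, had 2.08 and 0.88 in EGFP KD, -0.76 and -0.80 in Mbd3 KD and 0.01 and 0.10 in Chd4 KD. The EGFP KD arrays of Myc differed by more than 1, and the other KD arrays (between 0.36 and 1.25) reached down to near the Chd4 KD arrays, without overlap. Polr3gl, a subunit of RNA polymerase III, had 0.83 and 0.88 in EGFP KD, -0.32 and -0.38 in Mbd3 KD, -1.27 and -1.55 in Chd4 KD and between 0.39 and 0.99 on the other KD arrays. Its second probe met the rule as well.

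Foxd3, a forkhead factor of pluripotent cells and neural crest, had -0.44 and -0.46 in EGFP KD, -1.34 and -2.15 in Mbd3 KD, -1.85 and -1.73 in Chd4 KD and between -0.92 and -0.14 elsewhere. Sp5, a direct target of Wnt signalling, had -1.24 and -1.37 in EGFP KD, -2.88 and -2.78 in Mbd3 KD, -2.26 and -2.31 in Chd4 KD and between -1.71 and -1.18 elsewhere. Id4, an inhibitor of basic helix-loop-helix factors that BMP signalling induces, had -2.62 and -2.72 in EGFP KD, -3.43 and -3.77 in Mbd3 KD, -4.10 and -4.12 in Chd4 KD and between -3.30 and -2.44 elsewhere. For each of these 3 the NuRD KD arrays were the 4 lowest of the 12. The hedgehog effector Gli2 differed by -1.0 in Mbd3 KD and -1.72 in Chd4 KD. Six3, Hoxd1 and Hoxb2, which are homeobox genes, were near the floor on most arrays and high on EGFP KD replicate 1 alone, so that their differences rest on that array. Other members of the class were Msc, Pou4f2, Zfp672, Kdm3b, Zcwpw1, L3mbtl3, Nr4a1, Meox1, Cited2, Nr1d2, Zfp90, Taf1c, Tada2a and Hes3. The means of all 26 lay between -2.75 and -0.63. Kdm3b, a histone demethylase, had EGFP KD arrays of -0.21 and -2.58 and overlapped them.

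**Figure D2:**
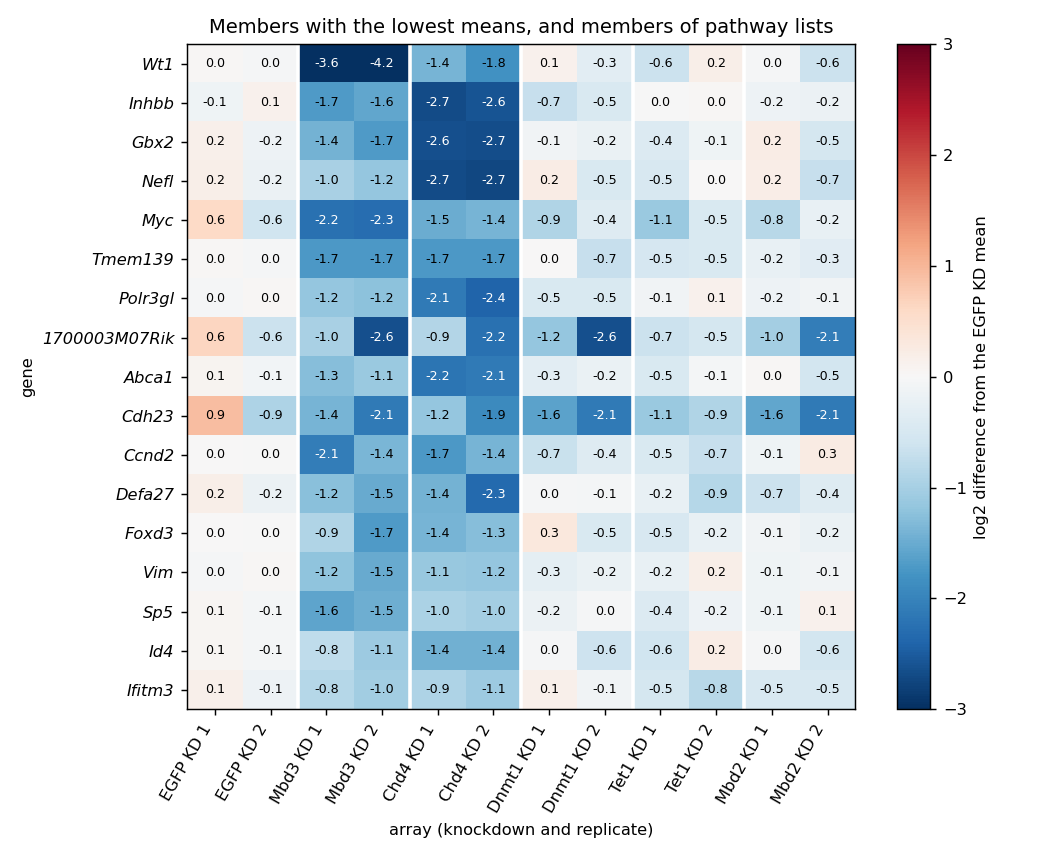
Log2 difference from the EGFP KD mean (colour and printed value) of the 12 members with the lowest means over the 4 NuRD KD arrays and of the members in a pathway list, on each of the 12 arrays. Values on the Mbd3 KD and Chd4 KD arrays are low for every gene shown, and for 1700003M07Rik and Cdh23 they are as low on the Dnmt1 KD and Mbd2 KD arrays.

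Genes of signalling made up 34 members. Inhbb encodes the beta B subunit of activins and inhibins, ligands of the TGF-beta family. It had log2 signals of 1.70 and 1.96 in EGFP KD, 0.14 and 0.28 in Mbd3 KD, -0.85 and -0.76 in Chd4 KD and between 1.14 and 1.87 on the other KD arrays, with no overlap. That is 3.08-fold and 6.21-fold below EGFP KD. Receptors among the members included the Wnt receptors Fzd2 and Fzd10, Notch4, the insulin receptor-related Insrr, the complement receptor C5ar2 and the chemosensory receptors Vmn1r57 and Olfr250. Fzd2 differed by -1.01 in Mbd3 KD and -1.23 in Chd4 KD, and Fzd10 by -1.34 and -0.70. Secreted or membrane-bound ligands were Inhbb, Ltb, Adipoq, Angptl6, Metrn, Calca, Sema4a and Tnfsfm13. Inside the cell, the small GTPase Rhoc had 4.08 and 3.69 in EGFP KD, 2.80 and 2.34 in Mbd3 KD, 2.21 and 1.96 in Chd4 KD and between 3.27 and 4.12 elsewhere, and its 2 probes both met the rule. Dvl1, which relays Wnt signals from Frizzled receptors, differed by -0.79 in Mbd3 KD and -0.95 in Chd4 KD. Traf2 and Nfkbie, which act in NF-kappaB signalling, differed by -1.03 and -1.23 in Mbd3 KD and by -0.85 and -0.65 in Chd4 KD. Other members of the class were Rassf9, Stk31, Rps6ka4, Rnd1, Sh3rf2, Prex2, Pkdcc, Gng4, Cyria, Bcar3, Cask, Mios, Phlpp2 and Kng2. The means of all 34 lay between -2.13 and -0.61.

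Structural genes of the cytoskeleton, adhesion and cilia were 23. Nefl, the light chain of neurofilaments, had 2.35 and 2.01 in EGFP KD, 1.21 and 1.02 in Mbd3 KD, -0.51 and -0.56 in Chd4 KD and between 1.5 and 2.42 on the other KD arrays. The Chd4 KD arrays were 6.57-fold below EGFP KD and lay close to each other, while Mbd3 KD was 2.1-fold below. Vim, the intermediate filament protein of mesenchymal cells, had 4.25 and 4.30 in EGFP KD, 3.07 and 2.77 in Mbd3 KD, 3.14 and 3.12 in Chd4 KD and between 3.99 and 4.44 elsewhere. Its 4 NuRD KD arrays were the lowest of the 12, with no overlap. Cdh23, a cadherin of the hair cell's tip links, had -1.81 and -3.68 in EGFP KD, -4.14 and -4.86 in Mbd3 KD, -3.91 and -4.66 in Chd4 KD and between -4.86 and -3.64 elsewhere. Only EGFP KD replicate 1 was high there, and the NuRD KD arrays lay inside the range of the 6 other KD arrays. Genes of cilia and centrosomes were Cluap1, Cep41, Cep97, Tmem17, Enkd1, Sdccag8, Pkd2, Dnaaf3 and Fam183b, and those of adhesion and the cell surface were Ceacam2, Msln, Cdhr1, Kirrel2, Opcml, Focad and Zp3. Ceacam2 differed by -1.58 in Mbd3 KD and -1.42 in Chd4 KD. Anxa1, Tchh, Ttn and Wdr47 complete the class, with means between -1.89 and -0.80 over all 23.

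The cell cycle and DNA replication or repair had 4 members. Ccnd2, the D-type cyclin that moves cells out of G1, had 0.30 and 0.26 in EGFP KD, -1.81 and -1.09 in Mbd3 KD, -1.44 and -1.13 in Chd4 KD and between -0.42 and 0.53 elsewhere, so that the NuRD KD arrays did not overlap any other. Pold2, a subunit of DNA polymerase delta, differed by -0.95 and -1.16, Fam111a by -0.91 and -1.0, and Psmc3ip, which acts in meiotic recombination, by -0.78 and -0.89.

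Metabolism was the largest of the assigned classes, with 35 members. Aass, the first enzyme of lysine breakdown, differed by -1.70 in Mbd3 KD and -1.31 in Chd4 KD. Enzymes that add or trim sugars were St3gal2, St6gal1, Fut2, B3gnt5, Glt28d2, Manba, Neu1 and Pgm3, and enzymes of sugar metabolism were Eno3, Pfkfb3 and Dera. Eno3, the muscle enolase, differed by -0.85 and -1.10, and Pfkfb3, which sets the level of an activator of glycolysis, by -0.84 and -0.83. Detoxifying and redox enzymes were Cyp2s1, Ephx2, Nqo2, Gsta3, Akr1e1 and Zadh2, and Sirt5 is a mitochondrial deacylase. The others were Enpp3, Aasdh, Accsl, Haghl, Nudt17, Bdh1, Car2, Fa2h, Smpd2, Enpp4, Acsbg3, Bckdk, Pex11g, Mmaa, Lipo3 and Pip4p1. Means lay between -1.56 and -0.68, with Enpp3 the lowest, at -1.21 in Mbd3 KD and -1.91 in Chd4 KD. Transport was a class of 7, led by Abca1, which exports cholesterol from cells. Abca1 had -0.66 and -0.81 in EGFP KD, -2.03 and -1.85 in Mbd3 KD, -2.93 and -2.86 in Chd4 KD and between -1.28 and -0.69 on the other KD arrays, with no overlap. Slc25a34, Scn10a, Kcnmb3, Slc39a3, Kcnip4 and Nkain4 were the others, and Scn10a, Kcnmb3 and Kcnip4 overlapped an EGFP KD array.

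RNA, translation and protein turnover had 16 members, all below both EGFP KD arrays and all below the 6 other KD arrays on the 4 NuRD KD arrays. Of all 187 members 170 and 140 did so, and of all eligible genes 12.4% and 3.98%. Dis3l, a catalytic subunit of the cytoplasmic RNA exosome, had 0.65 and 0.52 in EGFP KD, -0.35 and -0.23 in Mbd3 KD, -1.16 and -0.92 in Chd4 KD and between 0.66 and 0.94 elsewhere. Rpl39l, a paralogue of a ribosomal protein that is best known from testis, had 3.78 and 3.59 in EGFP KD, 2.47 and 2.64 in Mbd3 KD and 2.94 and 2.54 in Chd4 KD. Ubiquitin ligases, their adaptors or conjugating enzymes in this class were Rnf13, Marchf11, Trim32, Klhl13, Dcaf12l1 and Ube2j1, and the remainder were Tmub1, D1Pas1, Rnu3b1, Mlec, Mrpl41, Eef1akmt1, Ubl4a and Isy1. Host defence and secreted proteins had 11 members, 6 of them alpha-defensin genes or pseudogenes (Defa27, Defa40, Defa3, Defa26, Defa23 and Defa-ps1) of 13 that could enter. Defa27, the lowest, had -2.10 and -2.43 in EGFP KD, -3.51 and -3.77 in Mbd3 KD, -3.69 and -4.61 in Chd4 KD and between -3.13 and -2.31 elsewhere. These genes are near-identical copies whose probes may share signal, so they cannot be counted as separate observations. The other eligible defensins went both ways. Defa39 lay above the EGFP KD mean on all 4 NuRD KD arrays (0.06 to 1.03), Defa29 and Defa42 on all but Mbd3 KD replicate 1. Defa-ps12 was above it in Chd4 KD and below it in Mbd3 KD. Defa32 and Defa38 were below it on all 4 arrays, and Defa37 on all but Chd4 KD replicate 1. Ifitm3, an interferon-induced membrane protein that restricts viral entry and marks early germ cells, had 3.86 and 3.57 in EGFP KD, 2.87 and 2.67 in Mbd3 KD, 2.78 and 2.62 in Chd4 KD and between 2.87 and 3.86 elsewhere. For Ifitm3 the array labelled Tet1 KD replicate 2 was almost as low as the highest NuRD KD array. Mup6, Ucma, Spink7 and Glycam1 were the others.

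No function was assigned to 31 members. Tmem139 had -3.09 and -3.17 in EGFP KD, between -3.83 and -3.12 on the other KD arrays and the floor on all 4 NuRD KD arrays. It was not well above background on both Mbd3 KD arrays, which gives at least 3.33-fold lower there. 1700003M07Rik had -1.58 and -2.87 in EGFP KD, -3.20 and -4.86 in Mbd3 KD, -3.11 and -4.46 in Chd4 KD and between -4.86 and -2.76 elsewhere, with the NuRD KD arrays inside the range of the other KDs. The others were Gm13889, Pdcl2, Gm11627, Ankrd34a, Fkbp1b, A430005L14Rik, Ccdc167, Efhd1, Ier5l, 1190005I06Rik, Cebpzos, 0610010K14Rik, Ankrd24, Dbil5, Tex33, Btbd3, Armcx1, 1810010H24Rik, Smim8, Gm3604, Nat9, Fam43b, Soga3, Niban1, Ctdsp2, 4931406B18Rik, Cadps2, 2200002J24Rik and Cyb5d1. Their means lay between -1.73 and -0.83.

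The 2 NuRD KDs did not lower the members to the same extent. The mean was lower in Chd4 KD for 107 members, lower in Mbd3 KD for 72, and equal at the floor for 8. Chd4 KD was lower by more than 0.5 for 24 members and Mbd3 KD for 11. Chd4 minus Mbd3 had a median of -0.06 and ran from -1.65 (Nefl) to 2.29 (Wt1, which was well above background on only 1 of the 2 Mbd3 KD arrays). After Nefl, the largest gaps toward Chd4 KD were those of Pdcl2 (-1.30), Gbx2 (-1.11), Polr3gl (-1.06), Msln (-1.03) and Inhbb (-1.01). Toward Mbd3 KD they were those of Slc25a34 (0.88), Glt28d2 (0.86), Myc (0.83), Insrr (0.83) and Focad (0.82). The rule cut both KDs at the same value, so these gaps are a description of the members and say nothing of other genes. By limma over all genes, 36 members were called lower in Mbd3 KD, where 0.771% of all genes were called (0.292% lower and 0.479% higher, with 9.67% at an unadjusted p under 0.05). In Chd4 KD 94 were, where 3.17% of all genes were called (1.21% lower and 1.96% higher, with 12.8% unadjusted). Both KDs called 32 of the members. The rule used these comparisons, so nothing is read from the counts.

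**Figure D3:**
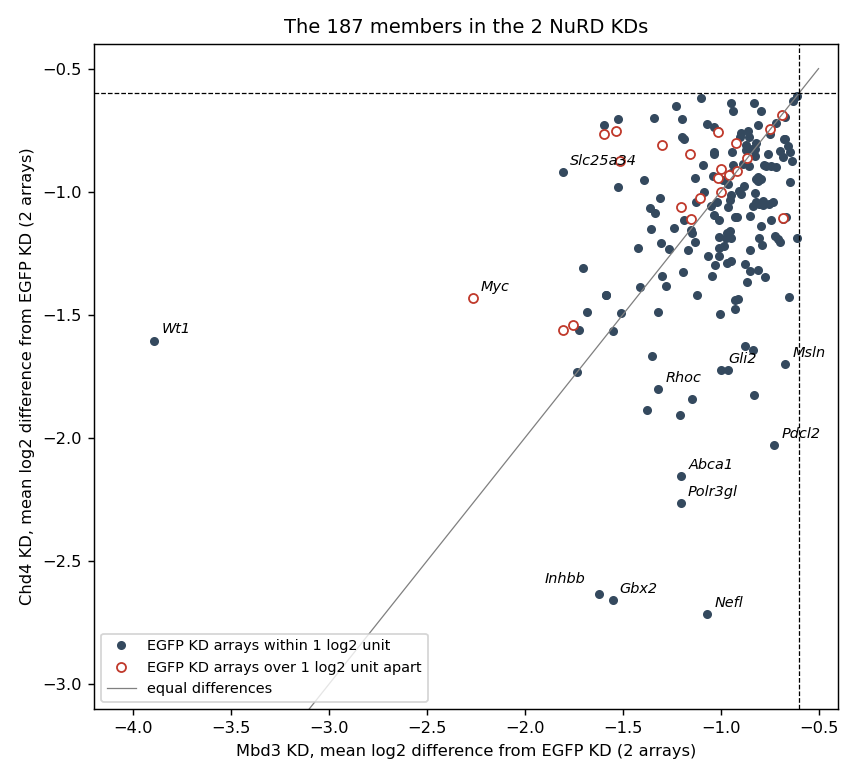
Mean log2 difference from EGFP KD in Mbd3 KD (x) and Chd4 KD (y) of the 187 members, with dashed lines at the threshold of the rule and open circles for the 22 members whose EGFP KD arrays differed by more than 1. Wt1 stands apart toward Mbd3 KD, and Nefl, Gbx2, Inhbb, Polr3gl and Abca1 toward Chd4 KD.

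To place the members in known pathways, 21 lists of genes were set, of which 324 were measured. Only 8 members were in any list, and 9 lists held at least 1. Members met the rule, while the other genes of a list were judged by limma (adjusted p under 0.05), which is a different bar. Gbx2 itself was not called in Mbd3 KD, nor Foxd3 in either KD, so a gene not called may still have differed. Gbx2 was the only member of 24 measured pluripotency genes, and of the other 23 none was called in Mbd3 KD or Chd4 KD. In these KDs in turn Nr0b1 differed by -0.53 and -1.16, Dppa3 by -0.99 and 0.05 and Tbx3 by 0.78 and 0.29. The list's medians were -0.05 and -0.22. Gbx2 was also 1 of 11 Stat3 targets, of whose other 10 none was called in Mbd3 KD and 1 was lower in Chd4 KD. Sp5 and Ccnd2 were 2 of 14 Wnt targets, with none of the other 12 called in either KD. The list's median over all its genes was -0.34 in Mbd3 KD and 0.13 in Chd4 KD. Myc was 1 of 14 FGF-ERK targets, of whose other 13 none was called in Mbd3 KD and 1 was higher in Chd4 KD. Id4 was 1 of 12 BMP and TGF-beta targets, of whose other 11 1 was lower in Mbd3 KD and none was called in Chd4 KD. Foxd3 was 1 of 14 genes of primed epiblast and early mesoderm, with none of the other 13 called in Mbd3 KD and 1 higher in Chd4 KD. Ifitm3 was 1 of 15 interferon-stimulated genes, and of the other 14, 2 were higher in Mbd3 KD and 3 in Chd4 KD, with none lower. Vim was 1 of 20 adhesion and matrix genes, of whose other 19, 1 was higher in Mbd3 KD, and 2 were higher and 1 lower in Chd4 KD. Ccnd2 was 1 of 18 cell cycle genes, with none of the other 17 called. Lists with no member included cholesterol synthesis, glycolysis and hypoxia, imprinted genes, germline genes silenced by methylation and p53 targets. Of 18 p53 targets, 1 was higher in Mbd3 KD and 5 in Chd4 KD, with none lower.

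In the other KDs the members were nearer to EGFP KD. Their median difference was -0.25 in Mbd2 KD, -0.24 in Dnmt1 KD and -0.24 in Tet1 KD, beside -0.03, -0.05 and 0.05 over all eligible genes. By array the members' medians were -0.17 and -0.33 in Mbd2 KD, -0.18 and -0.26 in Dnmt1 KD, and -0.25 and -0.18 in Tet1 KD, so the arrays that went against their labels (-0.25 for the one labelled Tet1 KD replicate 1 and -0.17 for the one labelled Mbd2 KD replicate 1) did not stand apart. All these comparisons share the EGFP KD arrays with the rule, so the members' values are given side by side and not tested. Both arrays lay at least 0.6 below the EGFP KD mean for 20 members in Dnmt1 KD (0.501% of all eligible genes), 11 in Tet1 KD (0.296%) and 19 in Mbd2 KD (0.41%). Taken singly, the arrays labelled Tet1 KD replicates 1 and 2 held 29 and 23 such members (1.72% and 1.94% of all eligible genes). Those labelled Mbd2 KD replicates 1 and 2 held 39 and 39 (4.49% and 9.57%). Most members low on both arrays of a KD had EGFP KD arrays that differed by more than 1, namely 13 of the 20, 9 of the 11 and 17 of the 19. Of the 165 members without such a gap, 7, 2 and 2 remained. They were Gm13889, Nkain4, Vmn1r57, C5ar2, D1Pas1, Enpp4 and Cyb5d1 in Dnmt1 KD, Mup6 and Msc in Tet1 KD, and Mup6 and Vmn1r57 in Mbd2 KD. The EGFP KD arrays of Vmn1r57 and Cyb5d1 differed by 0.999 and 0.979, just under the cut of 1. The matching share of all eligible genes without such a gap was not computed. Gm13889 differed by -1.31 and -0.71 on the Dnmt1 KD arrays, -0.24 and -0.12 in Tet1 KD and 0.07 and -0.02 in Mbd2 KD. Mup6 differed by -0.36 and -1.09, -0.77 and -0.76 and -0.67 and -0.91, against -1.27 and -1.75 in Mbd3 KD and -1.35 and -1.64 in Chd4 KD.

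The members lowest in the other KDs were Cdh23, Sdccag8 and Vmn1r57 in Dnmt1 KD, Tex33, Fa2h and Cdh23 in Tet1 KD, and Cdh23, Tex33 and Gng4 in Mbd2 KD. In all 6 genes EGFP KD replicate 1 was higher than every other array. Tex33 had -0.85 and -3.27 in EGFP KD, -3.18 and -3.25 in Mbd3 KD, -2.92 and -2.89 in Chd4 KD, -3.21 and -3.1 in Tet1 KD and -3.37 and -3.50 in Mbd2 KD, and its value on Dnmt1 KD replicate 1 was left out as an outlier spot. Fa2h, a fatty acid hydroxylase, had -2.86 and -4.86 in EGFP KD and the floor on 9 of the other 10 arrays. Sdccag8, a centrosomal protein, had -2.34 and -3.77 in EGFP KD, -3.81 and -3.66 in Mbd3 KD, -4.17 and -4.15 in Chd4 KD and between -4.49 and -3.45 elsewhere. Gng4, a G protein gamma subunit, had -2.66 and -4.45 and between -4.86 and -4.2 on the 6 other KD arrays, and Vmn1r57 -2.57 and -3.57 and between -4.86 and -3.30. For Sdccag8, Tex33, Fa2h and Gng4 the NuRD KD arrays overlapped or equalled EGFP KD replicate 2, so their distance from EGFP KD rested on replicate 1.

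Only Fam43b lay at least 0.6 above EGFP KD on both arrays of another KD, in Dnmt1 KD (1.85% of all eligible genes did), and no member did so in Tet1 KD (5.21%) or Mbd2 KD (1.65%). Fam43b had -2.70 and -2.51 in Dnmt1 KD, -4.02 and -3.83 in EGFP KD, -3.93 and -3.89 in Tet1 KD, -3.70 and -3.75 in Mbd2 KD, -4.86 and -4.86 in Mbd3 KD and -4.86 and -4.77 in Chd4 KD. With normexp background correction the mean difference in Dnmt1 KD, 1.32 here, turned to -0.04. Tchh, which encodes trichohyalin of the hair follicle, had -3.87 and -3.92 in EGFP KD and -3.32 and -2.58 in Dnmt1 KD, a mean difference of 0.94 that turned to -0.33 with normexp. Rpl39l had 4.18 and 4.17 in Dnmt1 KD, above both EGFP KD arrays. In Tet1 KD the highest members were Kng2, Pex11g and Insrr, which differed by 0.32 and 0.39, 0.23 and 0.27 and 0.22 and 0.25. In Mbd2 KD they were Dis3l, Dcaf12l1 and Fzd2, which differed by 0.36 and 0.26, 0.21 and 0.77 and 0.18 and 0.31. The mean difference of Kng2 turned to -0.07 with quantile normalization and -0.85 with normexp, and that of Fzd2 to -0.15 with normexp. The EGFP KD arrays of Insrr were -2.81 and -1.36, and its difference turned to -0.49 against the control on the same slide, -0.44 with slide as a block and -0.16 with normexp.

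**Figure D4:**
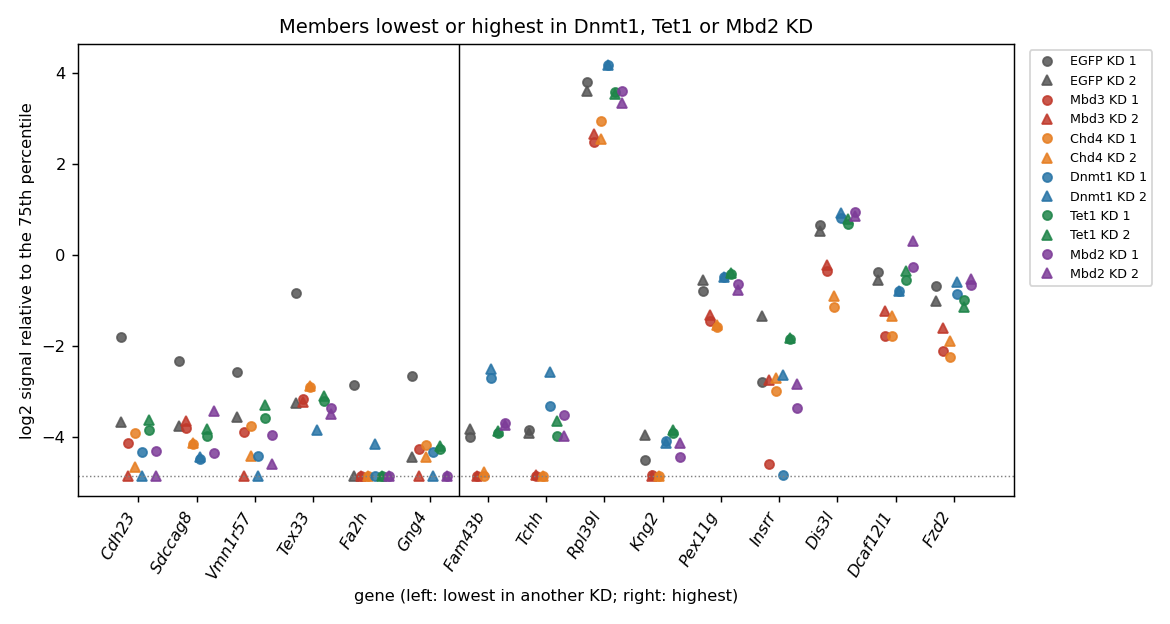
Log2 signal on each of the 12 arrays of the members that were lowest (left of the line) or highest (right) in Dnmt1 KD, Tet1 KD or Mbd2 KD, with circles for replicate 1, triangles for replicate 2 and a dotted line at the floor. On the left the grey circle of EGFP KD replicate 1 stands above all other arrays, and on the right Fam43b and Tchh have blue Dnmt1 KD points above all others.

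Differences among Dnmt1 KD, Tet1 KD and Mbd2 KD use none of the arrays that chose the members. They were tested by limma over all 29838 genes on those 6 arrays. Both Tet1 KD arrays lay on slide 2, and the Dnmt1 KD and Mbd2 KD arrays on slides 1 and 3. In the 2 comparisons with Tet1 KD, knockdown and slide thus cannot be told apart. No gene was called with a Benjamini-Hochberg adjusted p under 0.05 in Dnmt1 KD against Mbd2 KD, Dnmt1 KD against Tet1 KD or Tet1 KD against Mbd2 KD (0.0% of all genes in each), so no member was. By the targeted probes, the arrays labelled Tet1 KD and those labelled Mbd2 KD each held 1 array that went against its label, so these counts of 0 do not show that the KDs were alike. An unadjusted limma p under 0.05 was reached by 18 members (9.63%; 2.99% of all genes), 21 (11.2%; 7.28%) and 9 (4.81%; 6.12%). These counts are not adjusted, and members share libraries. The members come from the 17567 eligible genes, while the shares beside them are over all 29838, so the 2 are not like for like. Among members Fam43b had the smallest p in both comparisons with Dnmt1 KD. It differed by 1.30 (standard error 0.10, limma adjusted p = 0.57) for Dnmt1 KD minus Tet1 KD. For Dnmt1 KD minus Mbd2 KD it was 1.12 (standard error 0.10, limma adjusted p = 1). Inhbb was lower in Dnmt1 KD than in Tet1 KD by the same measure, at -0.58 (standard error 0.11, limma adjusted p = 0.57). Without the 2 arrays that went against their labels, which leaves 1 array each for Tet1 KD and Mbd2 KD and assumes that it varies like the Dnmt1 KD arrays, no gene was called in the 3 comparisons either. An unadjusted p under 0.05 was then reached by 8 members (4.28%; 1.6% of all genes), 4 (2.14%; 1.71%) and 0 (0%; 1.94%). Fam43b then differed by 1.28 for Dnmt1 KD minus Tet1 KD and by 1.14 for Dnmt1 KD minus Mbd2 KD, and Inhbb by -0.61 for Dnmt1 KD minus Tet1 KD (limma adjusted p = 1 for each). Against EGFP KD, limma called no gene in Dnmt1 KD, Tet1 KD or Mbd2 KD (0.0% in each), while 1415 (4.74%), 843 (2.83%) and 613 (2.05%) genes reached p under 0.05 without adjustment. Without the same 2 arrays, 0, 0 and 3 genes were called, none of them a member, and 1232 (4.13%), 988 (3.31%) and 818 (2.74%) reached p under 0.05 without adjustment. Counts of called genes turned on single arrays. Without EGFP KD replicate 2 they were 39, 32 and 33, without EGFP KD replicate 1 they were 7, 5 and 6, without Dnmt1 KD replicate 1 or 2 there were 10 or 8 in Dnmt1 KD, and without Mbd2 KD replicate 1 or 2 there were 7 or 46 in Mbd2 KD. Among Dnmt1 KD, Tet1 KD and Mbd2 KD the count stayed at 0 without any one array.

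The members lay on 20 chromosomes. Another member was within 100 kb for 16 of them (8.56%), and a member was within 100 kb of 787 of the 17380 other eligible genes (4.53%). The 16 members formed 7 groups, 2 of them in the defensin cluster on chromosome 8. These 2 groups held 3 and 2 of the 16. The 8.56% thus counts near-identical copies that are not separate observations, and the share without them was not computed. On chromosome 17 Msln, Haghl and Metrn lay together, with mean differences of -0.67, -1.0 and -0.93 in Mbd3 KD and -1.70, -1.5 and -1.10 in Chd4 KD. The other pairs were Accsl and Gm13889 on chromosome 2, Adipoq and St6gal1 on chromosome 16, Gm11627 and Fzd2 on chromosome 11, and Polr3gl and Ankrd34a on chromosome 3. The last pair, whose promoter sequences are among those printed, is read in opposite directions from starts 2455 bases apart. Ankrd34a had -0.21 and -0.11 in EGFP KD, -1.73 and -1.43 in Mbd3 KD, -1.5 and -1.28 in Chd4 KD and between -0.67 and -0.43 elsewhere. Nudt17, a further member in the same neighbourhood, had -1.91 and -1.84, -3.18 and -3.24, -2.80 and -3.12 and between -2.15 and -1.61 on the same arrays. Of 15 measured genes of this stretch, which was chosen after its values were seen, the 3 members were interspersed with others. Lix1l, next to Ankrd34a, differed by 0.36 and 0.15 and Rbm8a by 0.14 and -0.30 in Mbd3 KD and Chd4 KD. Ankrd35 and Txnip were lower without meeting the rule, at -0.71 and -0.56 in Mbd3 KD and -1.12 and -0.57 in Chd4 KD.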

How the data were processed

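RNA from 12 cultures (6 groups of 2 biological replicates) was hybridised to one-colour Agilent 4x44K mouse arrays, which limits precision to 2 arrays a group. The deposited scanner files hold the processed signal of each spot as an intensity, made by the authors with Agilent Feature Extraction 10.7.1.1 (per the submitters' processing notes). Their background correction can move dim probes. A further deposited table of the authors' log2 differences from EGFP KD was not used, because it holds their comparisons. Control spots (1377) and outlier flags were left out, spots of a probe were averaged, and signals were divided by each array's 75th percentile, floored at log2 -4.86 and put on the log2 scale. Of 39429 probes, 69.1% had 1 gene symbol through RefSeq accessions, giving 29838 genes, 19389 of them named. Groups came from the sample titles. Tests were made with limma 3.58.1 (R 4.3.3, lmFit and eBayes, Benjamini-Hochberg adjusted p under 0.05), on the 6 arrays of Dnmt1 KD, Tet1 KD and Mbd2 KD for comparisons among these and on all 12 arrays against EGFP KD. The fits of Mbd3, Chd4 and Dnmt1 KD against EGFP KD were tried on simulated arrays with independent noise and no slide or replicate effect. Comparisons among Dnmt1, Tet1 and Mbd2 KD were not simulated. Alternatives were quantile normalization, normexp background correction, no floor, the mean of a gene's probes, other thresholds, probe filters, the slide or the replicate number as a block, same-slide controls and leaving out each array. Leaving out the 2 arrays that went against their labels together, or the members with discordant EGFP KD arrays, was chosen after seeing the data.

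The members, gene lists and roles were chosen with earlier results of these data known. Values per array are given for the 12 members with the lowest means, members in a pathway list, and the 3 lowest and 3 highest members in each other KD. Other members given with values were picked for their function or position with the values in view. Tex33, Fam183b and Slc39a3 each lacked the value of 1 Dnmt1 KD array. Results of some genes are not reported here.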

Additional observations from a re-analysis of the deposited data

How the results depend on the processing

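The number of members depended on the threshold and the background correction, with 329 members at 0.5, 30 at 1 and 2091 after normexp correction, of which 127 were shared with the 187. Normexp set the median of all genes on the other arrays 0.11 to 0.24 below the EGFP KD mean (-0.24 to -0.11), so its count is not relative to the same zero. It also set the medians of EGFP KD replicates 1 and 2 at -0.21 and 0.21, beside -0.04 and 0.04 in the main setting. Whether these shifts gave the larger count was not tested. The cause of the other shifts was not tested. The members' median in Mbd3 KD was -0.91 with quantile normalization, -1.01 with no floor, -0.92 with the mean of the gene's probes, -1.01 with the same-slide control and -0.95 without the 22 members whose EGFP KD arrays differed by over 1. In Tet1 KD it was -0.30 with quantile normalization, -0.36 with normexp, -0.14 with the same-slide control, -0.18 with slide as a block and -0.19 without those 22 members. In Dnmt1 KD it was -0.32 with normexp. With no filter on dim probes limma called 7 genes in Dnmt1 KD and 1 in Tet1 KD against EGFP KD. Leaving out 1 array at a time gave 209 to 352 members (352 without EGFP KD replicate 1, of which 135 were among the 187, 328 without EGFP KD replicate 2, 330 without Mbd3 KD replicate 1), and 140 to 146 members below all 6 other KD arrays. The medians then ran from -1.04 to -0.90 in Mbd3 KD, -1.17 to -0.97 in Chd4 KD, -0.29 to -0.17 in Dnmt1 KD, -0.30 to -0.14 in Tet1 KD and -0.33 to -0.15 in Mbd2 KD, and the genes called against EGFP KD from 0 to 39 in Dnmt1 KD, 0 to 32 in Tet1 KD and 0 to 46 in Mbd2 KD. With the replicate number as a block the medians were -0.96, -1.05, -0.24, -0.24 and -0.25 in Mbd3, Chd4, Dnmt1, Tet1 and Mbd2 KD, with 0 genes called in the 6 comparisons of Dnmt1, Tet1 and Mbd2 KD with EGFP KD and with each other, as without it. Against EGFP KD the block gave 241 called genes (43 members) in Mbd3 KD and 1282 (114 members) in Chd4 KD, against 230 (36) and 946 (94) without it. Deviations of same-numbered arrays correlated by over 0.1 in 10 of 15 pairs of groups (-0.04 to 0.77). The highest values, 0.77, 0.71 and 0.64, were those among Dnmt1, Mbd3 and Mbd2 KD. In these groups replicate 1 lay on slide 1 and replicate 2 on slide 3, so replicate number and slide cannot be told apart. The main fits held no block, so such shared deviations were not taken out of them. Without the arrays labelled Tet1 KD replicate 1 and Mbd2 KD replicate 1, which was chosen after seeing the data, 3 genes were called in Mbd2 KD against EGFP KD. Of 572 alternatives for 52 values of named members, 11 changed the sign of 6 values and none (0) that of a value in Mbd3 KD or Chd4 KD. Normexp turned Fam43b (1.32 to -0.04) and Tchh (0.94 to -0.33) in Dnmt1 KD, Kng2 (0.36 to -0.85) and Insrr (0.24 to -0.16) in Tet1 KD and Fzd2 (0.24 to -0.15) in Mbd2 KD. In Tet1 KD, quantile normalization turned Kng2 to -0.07, slide as a block turned Insrr to -0.44, and the same-slide control, which leaves out EGFP KD replicate 1, turned Insrr to -0.49 and Tex33 from -1.1 to 0.11.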
